A study of Homo sapiens with 4 samples.

Results

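KGN, a human cell line from a granulosa tumour, was profiled by ChIP-seq for acetylation of histone H3 at lysine 27 (H3K27ac). Control cells gave 1 immunoprecipitated (IP) library and 1 input library. Another IP and another input came from cells treated for 24 h with testosterone, at a dose that the labels write as 10 um. The authors called regions on each IP against its own input, so there was 1 list per condition, no replicate, and no test between conditions. Regions were taken by gene name from both lists: symbols that start with LINC or SNHG, that end in -DT, -IT1 or -AS with a number, or that read MIR, digits, HG, which are the usual names of long non-coding RNA (lncRNA) genes. This name rule found 3 of 19110 control regions and 0 of 604 testosterone regions, and a count of 0 allows a share of up to 0.497% of that list.

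Long non-coding RNAs are transcripts without a long open reading frame. Many start beside the promoter of a coding gene and run the other way (divergent transcripts, -DT) or across it (antisense, -AS), while LINC genes lie between coding genes, SNHG genes carry small nucleolar RNAs in their introns, and MIR host genes are cut into microRNAs. H3K27ac marks active promoters and enhancers and does not tell which strand or which of several nearby genes is transcribed. Granulosa cells surround the oocyte and convert androgens to oestrogens.

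The label of lncRNA genes did not hold for the 3 regions. RefSeq lists both of their genes as protein-coding: NCBP2-AS2, now NCBP2AS2, which encodes a small protein, and LINC02210-CRHR1, a readthrough of a lncRNA gene into CRHR1, the receptor of corticotropin-releasing hormone. The authors' annotation gave almost no region to a non-coding gene, since 99.5% of the control regions whose symbol has a RefSeq gene type went to protein-coding symbols, 18876 of 18965. The regions are therefore described first as named by the patterns. The lncRNA genes are then read from RefSeq, by older symbols and by the positions of their starts, which was chosen after the data were seen.

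Sequences come from RefSeq on GRCh38.p14 and run 5′ to 3′ along the gene's strand, from 250 bases before a start to 50 after it. The first is the start of NCBP2, shown because the NCBP2-AS2 region reaches into it, with capitals for the 62 bases that lie in that region (chr3:196942479-196942778, minus strand).
NCBP2: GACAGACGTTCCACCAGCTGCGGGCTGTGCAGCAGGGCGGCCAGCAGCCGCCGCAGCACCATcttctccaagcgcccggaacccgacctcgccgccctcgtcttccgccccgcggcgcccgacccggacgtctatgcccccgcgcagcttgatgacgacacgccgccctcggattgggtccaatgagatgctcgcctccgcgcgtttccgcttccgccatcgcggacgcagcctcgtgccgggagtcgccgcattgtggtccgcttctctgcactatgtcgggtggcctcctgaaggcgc
The next 3 are lncRNA starts on which results below turn: the strongest antisense start, which was also marked after testosterone (THAP9-AS1, chr4:82900867-82901166, minus strand), the strongest SNHG start (SNHG10, chr14:95534823-95535122, minus strand) and the host of the miR-17-92 cluster (MIR17HG, chr13:91347437-91347736, plus strand). Capitals mark GC boxes (GGGCGG) and CCAAT boxes (CCAAT) on either strand, with overlapping copies counted, and no copy of the other 6 motifs searched was found in these 3.
THAP9-AS1: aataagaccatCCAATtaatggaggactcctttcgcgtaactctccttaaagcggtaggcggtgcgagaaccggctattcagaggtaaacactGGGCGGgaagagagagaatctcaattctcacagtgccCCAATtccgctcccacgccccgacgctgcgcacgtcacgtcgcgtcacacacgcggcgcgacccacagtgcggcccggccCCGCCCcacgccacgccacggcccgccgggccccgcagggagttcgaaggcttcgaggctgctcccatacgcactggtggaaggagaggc
SNHG10: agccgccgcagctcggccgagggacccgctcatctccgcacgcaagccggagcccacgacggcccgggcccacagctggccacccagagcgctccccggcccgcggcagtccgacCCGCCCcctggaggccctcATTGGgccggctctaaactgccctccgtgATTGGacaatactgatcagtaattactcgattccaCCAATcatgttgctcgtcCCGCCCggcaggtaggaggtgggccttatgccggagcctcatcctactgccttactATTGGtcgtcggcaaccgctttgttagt
MIR17HG: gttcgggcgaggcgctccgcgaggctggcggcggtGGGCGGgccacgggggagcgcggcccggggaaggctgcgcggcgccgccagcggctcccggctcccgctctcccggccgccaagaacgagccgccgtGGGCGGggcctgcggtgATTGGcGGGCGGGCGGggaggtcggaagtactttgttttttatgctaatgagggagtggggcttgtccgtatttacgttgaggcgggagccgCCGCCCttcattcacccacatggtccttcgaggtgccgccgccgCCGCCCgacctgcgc
THAP9-AS1 held 4 motif copies, SNHG10 held 6 and MIR17HG held 7. Other windows were read in the same way but are not printed. Those of CHKA-DT and MIR1915HG, both marked in control cells, held 0 copies of the motifs searched. That of LINC02210-CRHR1, which overlapped 0 control regions, held 5. The printed windows therefore do not stand for marked starts in general.

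The NCBP2-AS2 region (ENSG00000270170) was the only member within 1 kb of its credited start, 94 bp away, at chr3:196942717-196942951. NCBP2, the gene beside it, encodes the small subunit of the nuclear cap-binding complex. The region's pileup, the number of fragments at its summit as scaled by the caller, was 23.41, above that of 81.2% of control regions. Its fold enrichment, the ratio of pileup to local background with 1 added to each, was 4.16, below the median of 4.99 of the other control regions. The local background, solved from those 2 values, was 4.87 fragments, higher than at 92.9% of control regions. It was 235 bp wide, and 1.60% of control regions were narrower. Its -log10 q was 6.06. The NCBP2 promoter had 2 control regions of its own, with folds of 6.09 and 5.02, the nearer 271 bp from the NCBP2-AS2 region.

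The other pair of regions was credited to LINC02210-CRHR1 (ENSG00000263715), upstream of its start and in the distal intergenic class of the authors' annotation. The stronger, chr17:45585179-45585452, was 274 bp wide and lay 34.9 kb upstream, with a pileup of 18.73, a fold of 3.95 and a -log10 q of 4.30. The weaker, chr17:45584595-45584876, was 282 bp wide and lay 35.5 kb upstream, with a pileup of 16.86, a fold of 2.55 and a -log10 q of 1.36. That fold was higher than at 0.152% of control regions, and that q lies just above the lowest in the list, 1.32. Local background was 4.0 fragments at the stronger and 6.0 at the weaker, higher than at 86.9% and 97.8% of control regions. The regions were 302 bp apart, and the nearest RefSeq gene was the pseudogene DND1P1, 411 bp from the stronger. Whether reads shared with near-identical copies are split here was not tested, so these values are uncertain. Only 1 control region lay on the gene body of LINC02210-CRHR1.

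**Figure D1:**
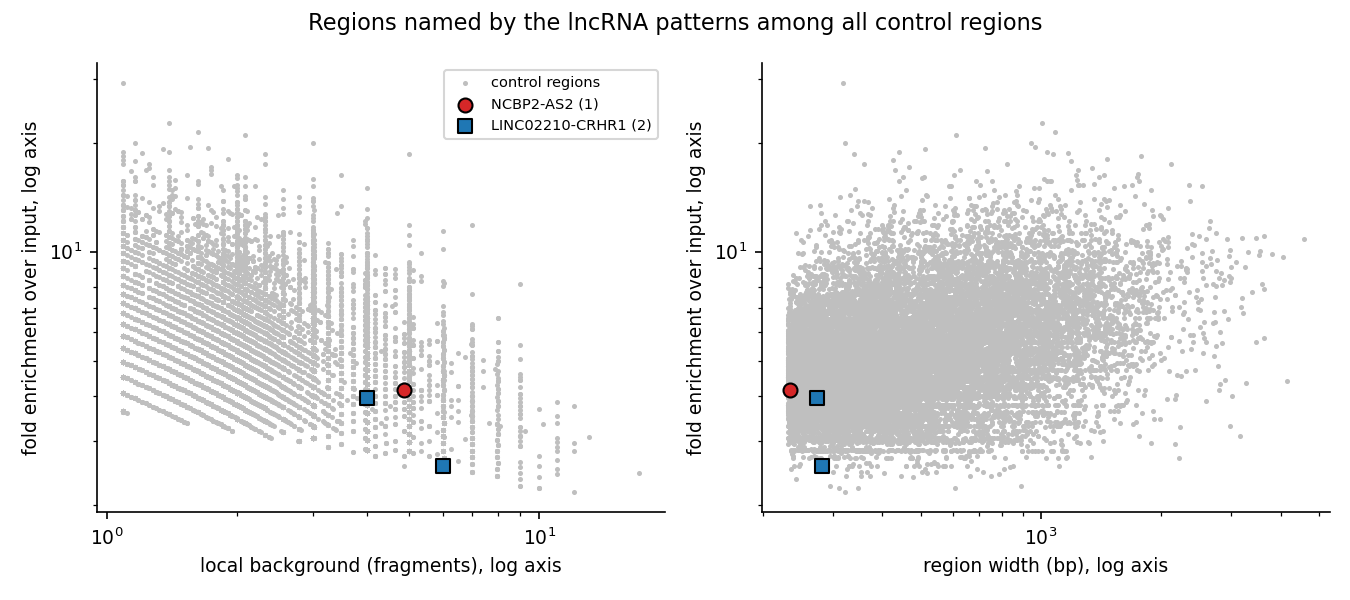
Fold enrichment over input of the 3 regions named by the patterns (coloured points) and of all 19110 control regions (grey), against local background in fragments (left) and region width in bp (right), all on log axes. The 3 coloured points lie at backgrounds of 4.0 to 6.0 fragments, where the median of the other control regions was 2.09, and at widths of 235 to 282 bp, where that median was 411 bp.

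No testosterone region overlapped any of the 3, where 0.884% of all control regions overlapped one, so nothing can be read from a count of 0 of 3. The nearest testosterone region was 0.769 Mb from NCBP2-AS2 and 0.191 Mb from LINC02210-CRHR1.

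Older symbols hid further lncRNA genes in the lists. RefSeq gives a lncRNA gene type to 23 symbols of the control list, with 63 regions, and to 1 symbol of the testosterone list, with 3 regions. Of these, 19 control regions belong to 7 genes whose present RefSeq name follows the patterns, and 3 of the 19 lie within 1 kb of the credited start. Folds of the 19 ran from 3.38 to 9.43 with a median of 5.23, against 4.99 for all control regions. None of the 63 overlapped a testosterone region, a count from which nothing can be read where 0.884% of all control regions did.

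The genes so recovered were MIR1915HG (listed as CASC10), LINC03040 (C6orf223), LINC02898 (C2orf91), LINC02693 (C17orf51), LINC03042 (C8orf86), DIP2C-AS1 (PRR26) and SNHG32 (C6orf48). LINC02693 had a region 0.270 kb from its start with a fold of 5.64, and another 38.5 kb away with a fold of 5.90. SNHG32 had 1 region, 0.057 kb from its start, with a fold of 3.38. The regions of LINC03040, LINC02898, LINC03042 and DIP2C-AS1 all lay beyond 1 kb of the start.

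MIR1915HG was the only gene recovered in this way that had testosterone regions. It had 6 control regions. The widest, 3209 bp with a pileup of 27.16 and a fold of 7.45, began 216 bp downstream of the start, and 3 more lay upstream, with folds of 9.43, 3.53 and 7.76. The remaining 2 control regions lay 126 kb and 142 kb downstream, with folds of 3.53 and 3.46. All 3 testosterone regions lay downstream as well, at 124 kb, 128 kb and 133 kb, with pileups of 8, 9 and 9 and folds of 4.18, 4.64 and 4.62. The testosterone and control regions did not overlap, the closest of them being 900 bp apart. The testosterone region at 124 kb covered the start of another lncRNA gene, LINC02643, which had no control region within 1 kb. Folds are scaled within each list and are not compared between conditions.

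**Figure D2:**
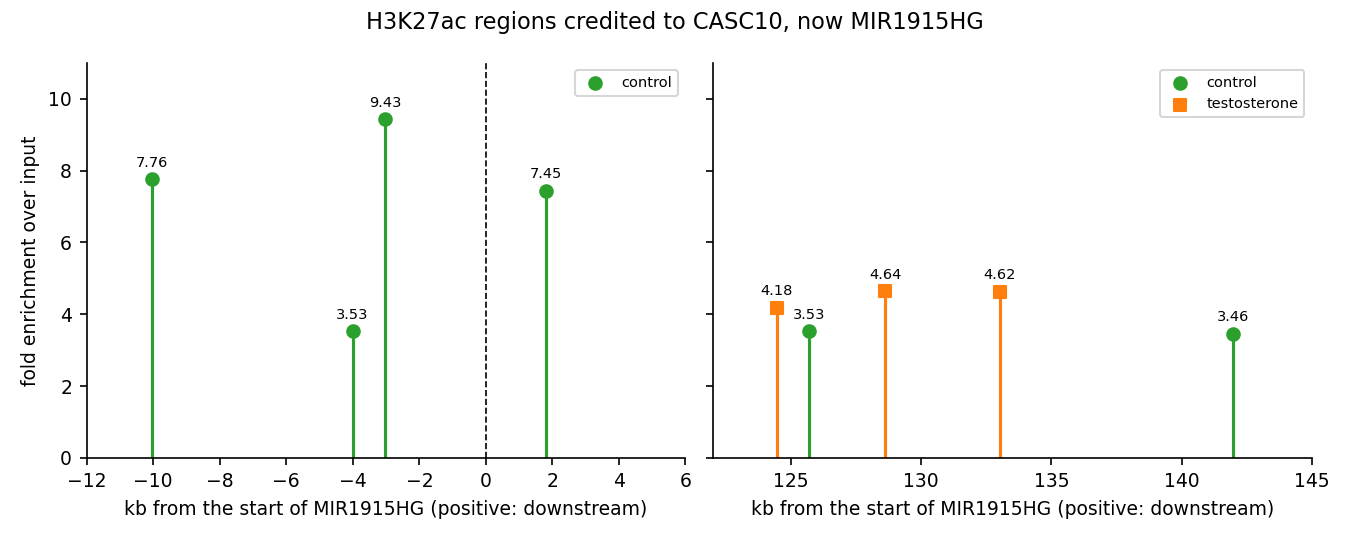
H3K27ac regions credited to CASC10, now MIR1915HG, by distance in kb from its start (dashed line) and fold enrichment over input, in 2 panels that leave out the stretch between. The 4 control regions near the start reach a fold of 9.43, and the 3 testosterone regions, with folds of 4.18 to 4.64, all lie 124 to 133 kb downstream.

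Both mature microRNAs of the MIR1915 hairpin lie inside the widest control region of MIR1915HG, 630 bp and 665 bp from the gene start. The microRNAs of MIR17HG, in contrast, lie past the end of its control region, the nearest by 2735 bp. They are shown with the seed, bases 2 to 8 that pair with targets, in capitals, for the better known arm of each MIR17HG hairpin and for both arms of MIR1915.
hsa-miR-17-5p: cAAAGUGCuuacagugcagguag
hsa-miR-20a-5p: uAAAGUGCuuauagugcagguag
hsa-miR-18a-5p: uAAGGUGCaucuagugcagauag
hsa-miR-19a-3p: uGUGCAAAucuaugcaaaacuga
hsa-miR-19b-3p: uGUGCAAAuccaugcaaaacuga
hsa-miR-92a-3p: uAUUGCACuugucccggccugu
hsa-miR-1915-3p: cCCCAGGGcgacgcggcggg
hsa-miR-1915-5p: aCCUUGCCuugcugcccgggcc
The 6 hairpins of MIR17HG give 12 mature microRNAs with 9 distinct seeds. miR-17-5p shares its seed with miR-20a-5p, and miR-19a-3p shares its seed with miR-19b-3p.

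The starts of lncRNA genes were then compared with the regions, whatever gene the authors had credited. Of 5084 RefSeq lncRNA genes with these name patterns, 3679 had a start in the reference table. A gene is called marked where a region lies within 1 kb of a start, and its fold is that of its strongest such region. In control cells 926 of the 3679 were marked, 25.2% (Wilson 95% interval 23.8 to 26.6%, which covers counting error only), where 34.1% of all lncRNA and protein-coding genes were. The share was 12.6% for lncRNA genes of other names and 46.9% for protein-coding genes. Median fold at marked starts was 5.97, beside 5.67 for other lncRNA genes and 5.87 for protein-coding genes.

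The name classes differed widely in how many of their starts were marked in control cells. Divergent transcripts led with 294 of 469 (62.7%, 58.2 to 66.9%), and SNHG genes followed with 15 of 25 (60%, 40.7 to 76.6%), so these classes overlapped in their intervals. Antisense genes had 478 of 1518 (31.5%, 29.2 to 33.9%) and MIR host genes 11 of 40 (27.5%, 16.1 to 42.8%), which also overlapped. LINC genes had 126 of 1578 (7.98%, 6.75 to 9.43%) and intronic transcripts, -IT1, had 2 of 49 (4.08%, 1.13 to 13.7%).

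**Figure D3:**
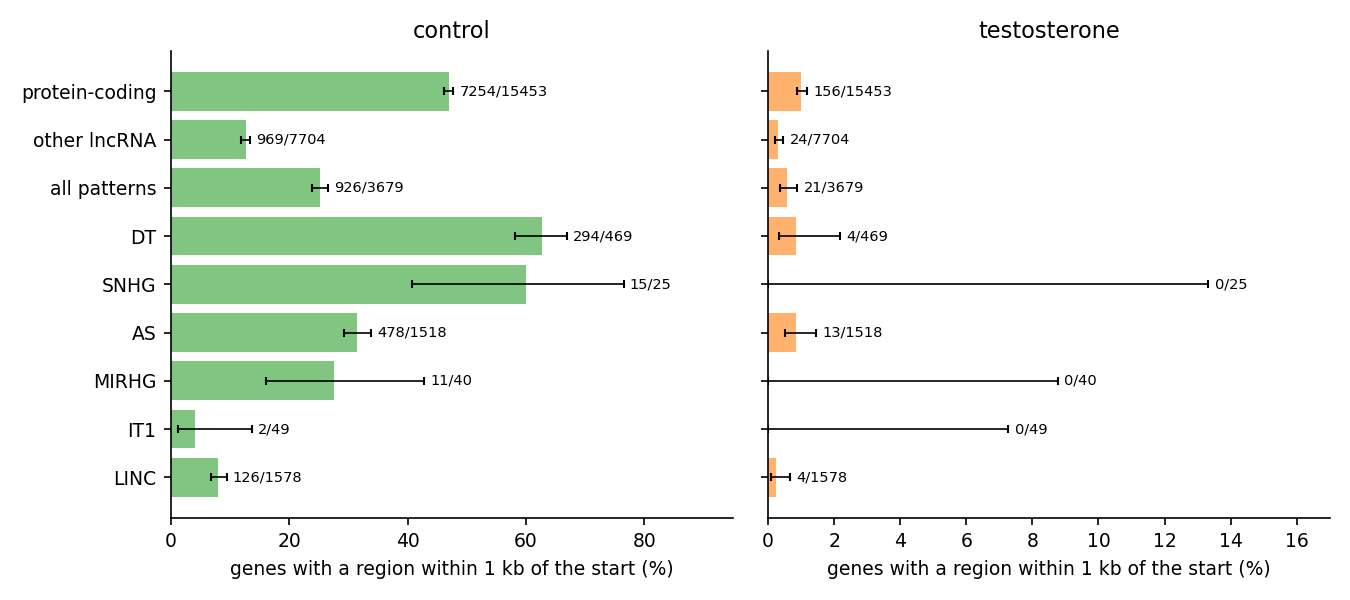
Share of genes with an H3K27ac region within 1 kb of a start, in percent, by name class, in control cells (left) and after testosterone (right, on another scale); whiskers are Wilson 95% intervals and labels give marked genes over genes. Divergent transcripts (62.7%) and SNHG genes (60%) lead in control cells, and no class of the name patterns exceeds 0.856% after testosterone. Protein-coding genes had 1.01% after testosterone and lncRNA genes of other names 0.312%.

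Marked starts lay mostly beside coding genes. Within 1 kb of an end of a coding gene, 720 of 1175 lncRNA genes were marked (61.3%, 58.5 to 64.0%), against 57 of 769 (7.41%) elsewhere inside coding genes and 149 of 1735 (8.59%) outside them. The ends included the authors' gene starts, which are known only for genes credited with a region. The first group was thus partly defined by the regions themselves, and how much this raised its share was not tested. Of the 149, 102 were LINC genes. SNHG genes stood apart from this pattern, with 11 of 14 marked outside coding genes (78.6%, 52.4 to 92.4%) and 4 of 11 beside them (36.4%, 15.2 to 64.6%), intervals that overlap.

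The 1155 control regions at lncRNA starts had been credited within 1 kb of an annotated gene start in 921 cases (79.7%), where 57.2% of all control regions were. Another 144 (12.5%) had been classed as distal intergenic, where 16.1% of all control regions were, and these made up 4.68% of that class. The median fold of the 1155 was 5.63. It was 5.69 at the 826 within 1 kb of a lncRNA start and of a coding start. It was 5.18 at the 329 within 1 kb of a lncRNA start and of no coding start. It was 5.45 at the 7428 near a coding start only, and 4.70 at the 10527 near neither. Only starts of pattern lncRNA genes and coding genes in the reference table count here, and that table is incomplete. The authors credited 10934 control regions within 1 kb of a start, so the set near neither holds some of these. Some of the 329 may also lie at a coding start that the table lacks.

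Divergent transcripts followed the gene they are named for. A partner was counted as having a control promoter region where the authors had credited to it a region within 1 kb of its start. When it had one, the divergent start was marked in 290 of 312 cases (92.9%, 89.6 to 95.3%), and otherwise in 4 of 157 (2.55%, 0.995 to 6.37%). The median distance from the divergent start to the nearest end of the partner was 194 bp, and for 98.6% of the marked ones the region had been credited to the partner, so the same region usually serves both counts. For antisense genes, the starts were marked in 391 of 697 cases (56.1%) where the partner had such a region and in 77 of 800 (9.63%) where it had none. The median distance was 7240.5 bp over all antisense genes with a partner, marked or not. For 368 of the 468 marked ones (78.6%) the region had been credited to the partner, so here too the same region often serves both counts. By the same count of credited regions, 66.5% of the partners of divergent transcripts and 42.2% of all protein-coding genes had a control promoter region. The 4 divergent starts marked where the partner had no control promoter region were RRAGC-DT, PIGY-DT, MPP7-DT and ZNF8-DT. Their folds were 5.60, 5.62, 3.996 and 4.77, and they were named after their values were seen. For RRAGC-DT, PIGY-DT and ZNF8-DT the region had been credited to another symbol with a start within 1 kb, MYCBP in the case of RRAGC-DT. The region of MPP7-DT had been credited to MPP7 itself, at -20.5 kb from the credited start.

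Summits sat on the partner's side of divergent starts. The summit of the strongest region was upstream of the start in 190 of 294 divergent transcripts (64.6%, 59.0 to 69.9%), with a median of -253 bp. At protein-coding starts it was upstream in 36.5% and its median was 119 bp downstream. Antisense starts had 42.1% upstream and LINC starts 42.1%.

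**Figure D4:**
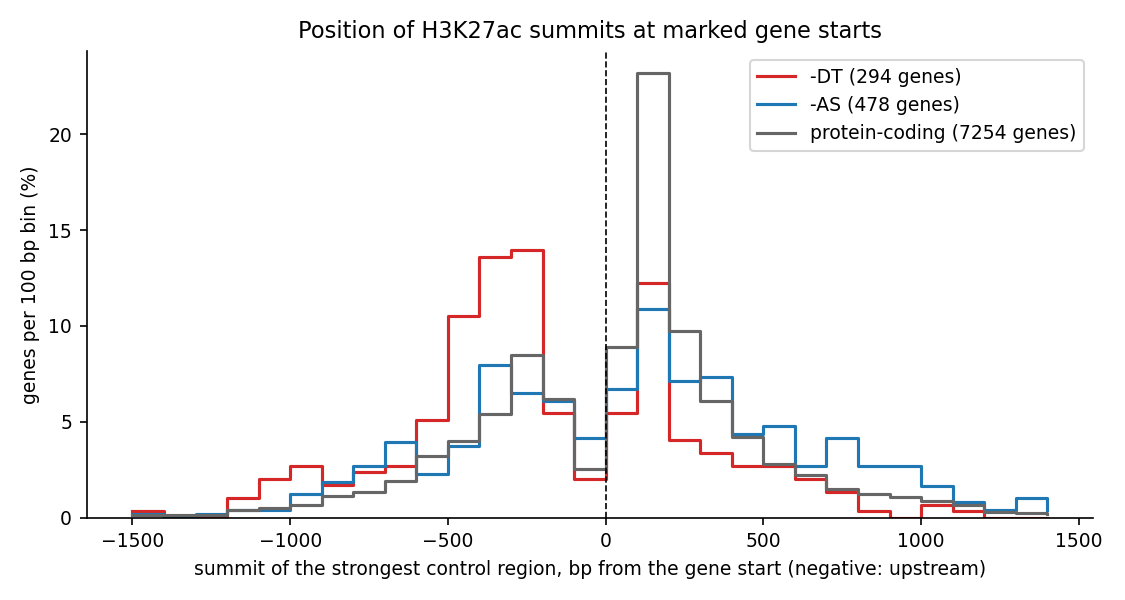
Position of the summit of the strongest control region, in bp from the gene start (negative is upstream), as the percentage of marked genes in each bin of the axis, for divergent (-DT), antisense (-AS) and protein-coding genes. The divergent curve is highest upstream of the start, where its median is -253 bp, and the protein-coding curve is highest just downstream, where its median is 119 bp.

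Among antisense genes the highest control fold was at THAP9-AS1, whose start lies 147 bp from THAP9, a gene related to transposases, with a pileup of 60.88 and a fold of 18.6. EPC1-AS1 followed with a fold of 17.1, beside a subunit of the NuA4 acetyltransferase complex. ERCC6L2-AS1, RALY-AS1 and BHLHE40-AS1 had folds of 15.7, 15.4 and 15.3, the last beside a basic helix-loop-helix repressor. All 5 regions overlapped the start of the named partner.

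The strongest divergent starts had folds from 11.8 to 13.0. CHKA-DT, beside choline kinase alpha, had 12.97, and H2AZ1-DT, beside the histone variant H2A.Z, had 12.68. ISL1-DT, beside a LIM homeobox factor, had 12.16, NUBPL-DT had 12.14 and CLSPN-DT, beside the replication checkpoint protein claspin, had 11.81.

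Of LINC genes, the highest was LINC02939 with a fold of 13.8, and its region had been credited to PRR34, 15.1 kb away. LINC02891, with 11.9, had a region credited to RTN4R 36.5 kb away. The regions of the other 3 lay at coding promoters, that of LINC01089 (13.7) at 42 bp from the start of RHOF and those of LINC00693 (13.5) and LINC02608 (13.4) over the starts of RBMS3 and PPP2R5A. The only marked -IT1 genes were GRK5-IT1, with a fold of 7.20 at a region 0.266 kb upstream of the GRK5 start, and KIRREL1-IT1, with 3.30. No gene had more than 3 control regions within 1 kb of its starts, and 14 genes had 3. Of these the highest folds were at PCBP1-AS1 and LINC-PINT, whose regions are counted over 5 and 4 starts, and at FBXL19-AS1, HOXB-AS2 and H3-3A-DT, each with 1 start.

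SNHG genes were marked widely and mostly at modest strength. Folds of the 15 marked ran from 3.38 (SNHG32) to 10.3 (SNHG10), and 5 exceeded 4.99, the median of all control regions: SNHG10, SNHG5 (7.88), SNHG8 (7.52), SNHG19 (6.10) and SNHG7 (5.63). Folds at all marked pattern genes had a median of 5.97 and a lower quartile of 4.70, so most of those genes exceeded 4.99 too. SNHG7 lay below 5.97. In 10 of 15 cases the region had been credited to a gene whose start lies over 1 kb away, such as SYNCRIP, with its start 34.4 kb from the SNHG5 region, and PRSS12, with its start 73.9 kb from the SNHG8 region although the end of that gene is within 1 kb. SNHG10 was among the other 5, with a region shared with GLRX5, a glutaredoxin of iron-sulphur cluster assembly. No region was listed within 1 kb of the other 10, SNHG1, SNHG4, SNHG12, SNHG14, SNHG18, SNHG20, SNHG27, SNHG28, SNHG30 and SNHG31.

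The 11 marked MIR host genes all exceeded 4.99, the median of all control regions, as did most marked pattern genes. Their folds ran from 5.12 (MIR210HG, host of the hypoxia-induced miR-210) to 10.9 (MIR3677HG). Of the 11, only MIR210HG lay below 5.97, the median at all marked pattern genes. MIR17HG had a fold of 9.0 at a region that spans its whole printed start, credited to GPC5 although that gene's start lies 50.7 kb away. MIR31HG had 7.47, credited to IFNE at 76.9 kb. MIR4733HG had 7.92, MIR22HG 7.57, MIR497HG 7.51, MIR4453HG 6.85, MIR762HG 6.34 and MIR3936HG 6.19. The other 29 had no region within 1 kb, MIR100HG, MIR155HG and MIR503HG among them.

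**Figure D5:**
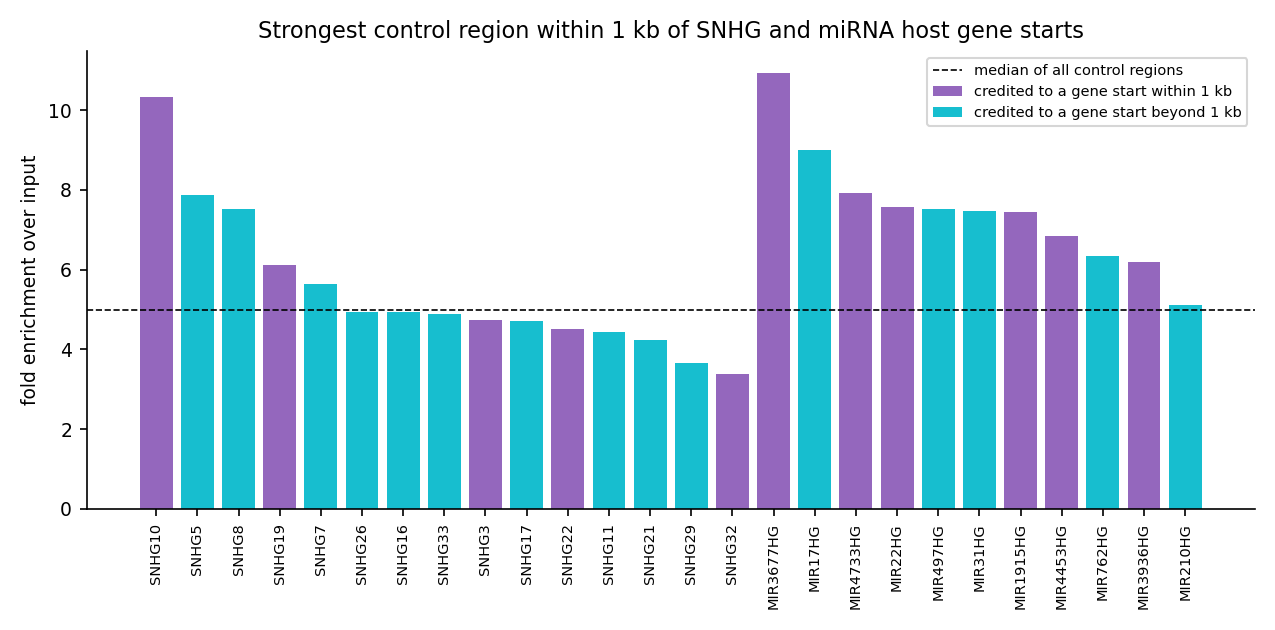
Fold enrichment over input of the strongest control region within 1 kb of the start, for the 15 marked SNHG and 11 marked MIR host genes; colour tells whether the authors' annotation credited the region to a gene start within or beyond 1 kb, and the dashed line is the median of all control regions, 4.99. All 11 MIR host genes and 5 of 15 SNHG genes stand above the line, and the median at all marked pattern genes was 5.97.

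From a list of well-known lncRNA genes with such names, 32 of 42 had a start in the table and 18 were marked in control cells, where 25.2% of all pattern genes were. ZEB1-AS1, beside a regulator of epithelial-mesenchymal transition, had a fold of 14.4, LINC00963 10.998 and TMPO-AS1 10.0. LINC-PINT, a p53-induced transcript, had 9.61, OIP5-AS1 8.55, FGD5-AS1 7.90, and CDKN2B-AS1, which shares its region with CDKN2A, 7.40. HOXB-AS1 (6.75) and HOXD-AS2 (5.35) were marked, and HOXA-AS2 and HOXA-AS3 were not. No region lay at GATA6-AS1, SOX9-AS1, HAND2-AS1, LINC00261 or LINC00511. Of 26 lncRNA genes with other names, 8 of the 17 with a start were marked, where 12.6% of all lncRNA genes of other names were. The 8 were NORAD (13.0), which binds Pumilio proteins, ZFAS1 (9.07), MIR9-1HG (8.20), TP53TG1 (7.21), MALAT1 (7.07), a nuclear speckle RNA, GAS5 (6.21), MIRLET7BHG (6.21) and TUG1 (5.75), which RefSeq types as protein-coding. The 9 without a region were H19, MEG3, HOTTIP, DANCR, CYTOR, CRNDE, JPX, FTX and MIR4435-2HG.

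After testosterone 21 of the 3679 genes were marked, 0.571% (0.374 to 0.871%), where 0.749% of all lncRNA and protein-coding genes were. These were 13 antisense genes, 4 divergent transcripts and 4 LINC genes, through 20 regions, since LINC02870 and LINC03068 share 1. No SNHG, MIR host or -IT1 gene was marked. Of the 21, 18 were also marked in control cells, and 14 lay within 1 kb of a coding gene end. Testosterone folds ran from 3.33 to 7.40 and pileups from 8 to 17 fragments. At a -log10 q of at least 5 only 3 of the 21 were left (0.0815%), NARF-AS2, THAP9-AS1 and ZNF143-AS1, and with a window of 3 kb 41 genes were marked (1.11%).

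The strongest testosterone values were at ZNF143-AS1 (fold 7.40, pileup 15), beside a zinc-finger promoter factor, NARF-AS2 (7.39, pileup 16) and THAP9-AS1 (6.79, pileup 17), and all 3 were marked in control cells too, with folds of 11.3, 8.82 and 18.6. THAP9-AS1 was the only gene of the well-known list with a testosterone region. The others marked in both were MYCL-AS1, ZNF337-AS1, KLF9-DT, GEMIN7-AS1, MAP2K5-DT, LINC01149, AHI1-DT, LINC03068, LINC02870, TMEM147-AS1, PEF1-AS1, EPCAM-DT, ALOX12-AS1, VIM-AS1 and ZSCAN5A-AS1. At 9 of the 18 the strongest control region itself overlapped a testosterone region, among them EPCAM-DT, beside the epithelial adhesion molecule EPCAM, and KLF9-DT, beside a Krüppel-like factor.

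Marked after testosterone only were LINC02643, LRRC59-AS1 and DLGAP1-AS1, with folds of 4.18, 5.05 and 4.70 and pileups of 8, 11 and 10 fragments. The region at LINC02643 covered its start, while those at LRRC59-AS1 and DLGAP1-AS1 lay 969 bp and 448 bp away. The -log10 q of the 3 ran from 1.47 to 2.53, the lowest of the list being 1.31.

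Control regions at lncRNA starts overlapped a testosterone region in 11 of 1155 cases (0.952%, 0.533 to 1.70%), close to 0.884% of all control regions. In the other direction, 10 of the 20 testosterone regions at lncRNA starts overlapped a control region (50%, 29.9 to 70.1%), where 28.1% of all testosterone regions did. Regions of 1 library are not replicates, and with 20 regions the interval reaches close to that background. The sets also differ in position. Of the 20, 14 (70%) had been credited within 1 kb of a gene start, against 31.8% of all testosterone regions. The part of this in the difference in overlap was not tested.

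The promoter windows of marked lncRNA genes were rich in G and C. Their median GC content was 66.7% with 27 CG dinucleotides in 300 bases, against 48.7% and 4 in unmarked lncRNA genes, 67.3% and 28 in marked coding genes, and 58.7% and 14 in all windows. A GC box was present in 69.5% of marked and 21.2% of unmarked lncRNA windows, and in 45.03% of all windows. ETS motifs (CCGGAAG) were present in 13.2%, 5.59% and 10.3%, NRF1 motifs (GCATGCGC) in 5.62%, 1.38% and 3.06%, and E-boxes (CACGTG) in 8.10%, 5.38% and 7.27%. In coding genes a GC box was present in 76.8% of marked and 45.8% of unmarked windows.

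Motifs without CG were less frequent at marked starts. AP-1 motifs (TGANTCA) were present in 4.32% of marked, 12.5% of unmarked and 7.68% of all windows, TATA boxes (TATAAA) in 5.08%, 14.6% and 11.5%, and the AGAACA core of the androgen response element in 8.10%, 21.5% and 14.8%. CCAAT boxes varied less, with 31.7%, 34.9% and 34.6%. Coding genes differed in the same direction, so these contrasts are not particular to lncRNA starts. AP-1 motifs were in 3.57% of marked and 7.39% of unmarked coding windows. TATA boxes were in 4.26% and 13.8% of them, and AGAACA in 7.36% and 13.9%. All motifs were searched on both strands, and the part of base composition in these shares was not tested.

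As a check of the cell line, 2 of 15 granulosa genes had a control promoter region credited to them, where 42.2% of all protein-coding genes had one: FOXL2 (10.7), a factor that defines granulosa cells, and INHBB (6.04), an inhibin subunit. FSHR, CYP19A1, AMH and the remaining granulosa genes had none, and none had a testosterone promoter region. Of the genes of other cell types, only GDF9 of 4 oocyte genes had a control promoter region, and Sertoli, blood and endothelial genes had none.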

How the data were processed

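The deposited tables give, for each called region, the pileup as a signal in fragments, the fold enrichment as a ratio over input, and -log10 p-values and q-values, as the authors deposited them. Per the submitters' processing notes the tools were Bowtie2 (version 2.0), bedtools, MACS2 and ChIPseeker, with the builds mm10 and hg38, and no caller setting is given in the sources used here. The deposited fold and pileup were solved for a local background, which gave back the deposited -log10 p as a Poisson tail within 0.00385. Library totals were not used here, so depth is unknown. Positions are 1-based on GRCh38.

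Members, gene lists and motifs were chosen with earlier results of these data known, and the reading by older symbols and by RefSeq starts was added after the files were seen. Gene starts and windows came from RefSeq tables on GRCh38.p14, for chromosomes 1 to 22 and X as far as that table holds them, and coding genes named only by a LOC number were left out. None of the marked genes named by start position lies on chromosome 8, so starts there may be missing. Counts of regions include that chromosome. Distances to coding genes used RefSeq gene ends and starts, and the authors' starts, which the lists give only for genes credited with a region. Overlap means at least 1 bp. Named genes were all with a testosterone region, all marked SNHG and MIR host genes, the 5 highest folds of each other class, those with most regions, and fixed lists; the 3 highest beyond 1 kb, also in that rule, had no counterpart once genes were read by position. Shares have Wilson intervals at the 95% level. No test between conditions was made. Python 3.11.15, pandas 2.3.3, numpy 2.4.6, scipy 1.17.1 and matplotlib 3.10.9 were used. The code that links starts to regions and finds overlaps was tested on simulated data. The code for Wilson intervals was not part of that test.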

Additional observations from a re-analysis of the deposited data

How the results depend on the processing

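No paired analysis was possible because each condition had 1 IP library and no test was made. Of 85 alternative values, 50 stayed within the counting interval or 1.5 times the count, and 35 moved. Reversal was not assessed as a separate outcome. The share of control regions below the members' median passed 50% by pileup and with RefSeq types. The 3 named regions fell to 1 at a -log10 q of 5, at a fold of 4 or without LINC names, and rose to 63 (testosterone 3) with RefSeq gene types. The share of them within 1 kb, 33.3%, became 100% under those first 3 settings and 0% without -AS names. The share of control regions with a fold below the members' median, 19.9%, was 2.31% at q 5, 5.19% at fold 4, 51.4% with RefSeq types, 27.1% without LINC, 5.22% without -AS, 20.7% and 23.5% for windows of 500 bp and 3 kb, and 36.8%, 64.7% and 15.3% by -log10 p, pileup and width. The share of lncRNA genes marked in control cells, 25.2%, was 23.1% at 500 bp, 27.9% at 3 kb, 18.9% at q 5, 21.9% at fold 4, 38.1% without LINC and 20.7% without -AS. After testosterone, 0.571% became 1.11% at 3 kb, 0.0815% at q 5 and 0.370% without -AS. The share of marked genes outside coding genes, 16.1%, was 5.88% without LINC and 27.5% without -AS. The share of divergent starts marked, among those whose partner had a control promoter region, 92.9%, was 87.9% at 500 bp and 96.5% at 3 kb. Overlap with testosterone regions at lncRNA starts, 0.952%, was 0.253% at q 5, 0.346% at an overlap of 50% and 2.16% within 1 kb. The cause of these changes was not tested beyond what each setting adds or removes. The shares that need a testosterone member have no value, since there was none. With 1 library per condition and unknown depth, a missing region does not show that the mark is absent.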
